A study of Homo sapiens with 6 samples.

Results

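FOSL1, FOSL2, FOSB, JUND, EGR1, MAFF, MYC and SPRY2 are 8 genes that cells switch on or adjust within minutes to hours of a growth signal. They were taken from an expression array series on the human osteosarcoma line U-2 OS by their symbols in the platform annotation, and all 8 were found among the 14884 genes tested. Where a gene had several probe sets, the one with the highest mean over the 6 arrays was used, and both probe sets of FOSB and of EGR1 are shown. In both groups a retrovirus delivered progerin, and the cells were kept for 3 days in puromycin at 5 µg/ml and collected 4 days after infection. On 3 arrays the vector carried wt-progerin, the truncated and permanently farnesylated form of lamin A that builds up in Hutchinson-Gilford progeria. On the other 3 it carried S22A-progerin, in which alanine replaces serine 22, a residue phosphorylated when mitotic cells dissolve the lamina. The question of the comparison is what changes in expression once this site is lost. Both groups express progerin from a vector in the same cancer line, and arrays of uninfected or empty-vector cells were not analysed here, so each difference is between the 2 progerin forms and gives no distance from the parent line.

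Growth factors bind receptor tyrosine kinases at the cell surface, and the signal passes through RAS and the RAF, MEK and ERK kinases to the nucleus. There it induces immediate-early genes, among them EGR1 and the FOS and JUN families. FOS and JUN proteins, with relatives of the ATF and Maf families, pair through leucine zippers into AP-1 dimers. MYC, paired with MAX, drives genes of growth and ribosome production, and MXD proteins compete with it for MAX. Sprouty proteins and dual-specificity phosphatases are induced by the same signal and dampen it. In osteosarcoma and bone cells, AP-1 proteins are known for their part in proliferation and in osteoblast differentiation.

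The 8 genes were proposed because of their difference between these groups, so their values are a description and no p-value is given for any of them. Differences are given on the log2 scale as S22A-progerin minus wt-progerin, from 3 arrays per group. In S22A-progerin cells, SPRY2, FOSL1, MYC, MAFF and FOSB had higher values, by 1.18, 0.99, 0.71, 0.57 and 0.26. FOSL2, EGR1 and JUND had lower values, by -0.42, -0.30 and -0.25. In linear terms these differences run from 2.27-fold for SPRY2 to 1.19-fold for JUND. The groups did not overlap in any of the 8 genes, against 42.1% of all genes tested, and all 8 were past an adjusted p of 0.05 in limma's fit, against 25.4% of all genes. Both counts follow from how the genes were chosen.

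**Figure D1:**
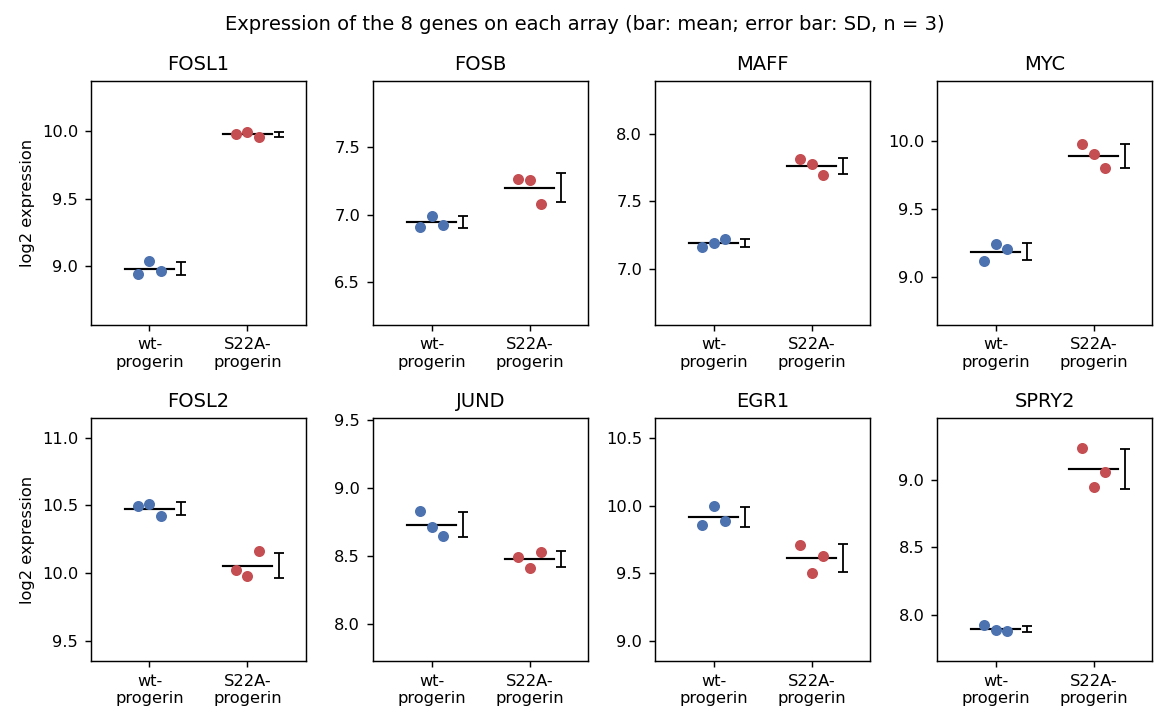
Log2 expression of the 8 genes on each of the 6 arrays, wt-progerin in blue and S22A-progerin in red, with the mean as a bar and the SD (n = 3) as an error bar. Each panel spans the same log2 range. FOSL1, FOSB, MAFF, MYC and SPRY2 lie higher in S22A-progerin and FOSL2, JUND and EGR1 lower, and SPRY2 has the widest spread among its S22A-progerin arrays (SD 0.145).

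The arrays were close in level, but each S22A-progerin array had a higher median over all probe sets than each wt-progerin array. The medians were 6.044, 6.037 and 6.038 in wt-progerin and 6.05, 6.082 and 6.089 in S22A-progerin. With the arrays centred on their medians, the difference of FOSB was 0.22 and that of JUND -0.29. Array-to-array correlations across genes (not independent replicates) were 0.994 to 0.997 within groups and 0.983 to 0.985 between them. The labels describe the 3 samples of each group as independent, and p-values measure only the spread between these samples. Of 12 osteoblast lineage markers 6 were measured. RUNX2, the master factor of the osteoblast lineage, fell from 8.77 ± 0.068 to 8.03 ± 0.15 (SD, n = 3; difference -0.74, SE 0.085, limma adjusted p = 0.00096). SPP1, the bone matrix protein osteopontin, rose from 7.18 ± 0.091 to 8.36 ± 0.11 (SD, n = 3; difference 1.18, SE 0.077, limma adjusted p = 9.83e-05). Both kept their calls in every alternative run, and the part of these differences in those of the 8 genes was not tested. SP7, DLX5 and PTH1R had wt-progerin means between 6.20 and 6.27 and IBSP one of 3.86, and these 4 did not pass. Leukocyte, epithelial and endothelial lists had 3, 3 and 2 measured genes, with wt-progerin means between 4.70 and 7.15, and KRT14 (-0.32, SE 0.077, limma adjusted p = 0.0218) was the 1 gene of these 8 that passed, though not without wt-progerin replicate 1 or 2 or S22A-progerin replicate 1 or 3 (adjusted p up to 0.0614). The files give no detection call for dim probe sets, and fewer cells of a type and less RNA per cell cannot be told apart.

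The promoter windows of 4 of the genes are shown because they cover both directions, EGR1 and JUND with lower and MAFF and SPRY2 with higher values in S22A-progerin. Each is the 250 bases before the annotated start (the most upstream one where there are several), 5′ to 3′, from RefSeq on GRCh38.p14. Capitals mark matches on either strand to 7 motifs. These were the CArG box (the site of serum response factor, SRF), TGACTCA (AP-1), TGACGTCA (the cyclic AMP response element, also bound by JUN and ATF dimers), CACGTG (the E-box of MYC and MAX), GCGNGGGCG (EGR factors), the kappaB site and TATAAA. The EGR1 window is chr5:138465229-138465478 on the plus strand and the JUND window chr19:18281623-18281872 on the minus strand. The MAFF window is chr22:38201744-38201993 on the plus strand and the SPRY2 window chr13:80341127-80341376 on the minus strand.
EGR1: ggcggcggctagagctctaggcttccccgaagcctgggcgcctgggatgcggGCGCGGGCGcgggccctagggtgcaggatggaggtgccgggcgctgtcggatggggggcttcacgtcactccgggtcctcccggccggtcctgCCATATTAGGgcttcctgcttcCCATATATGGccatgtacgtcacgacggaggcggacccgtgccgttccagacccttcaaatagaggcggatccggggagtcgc
JUND: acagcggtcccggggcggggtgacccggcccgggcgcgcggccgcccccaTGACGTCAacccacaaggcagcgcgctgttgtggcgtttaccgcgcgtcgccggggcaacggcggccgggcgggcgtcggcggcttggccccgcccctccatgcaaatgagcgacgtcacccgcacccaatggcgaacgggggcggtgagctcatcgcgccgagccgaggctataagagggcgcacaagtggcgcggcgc
MAFF: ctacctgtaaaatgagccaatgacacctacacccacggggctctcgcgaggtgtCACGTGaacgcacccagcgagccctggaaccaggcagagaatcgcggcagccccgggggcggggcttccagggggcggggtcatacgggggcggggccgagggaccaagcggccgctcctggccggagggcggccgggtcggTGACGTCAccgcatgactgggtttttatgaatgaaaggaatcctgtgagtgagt
SPRY2: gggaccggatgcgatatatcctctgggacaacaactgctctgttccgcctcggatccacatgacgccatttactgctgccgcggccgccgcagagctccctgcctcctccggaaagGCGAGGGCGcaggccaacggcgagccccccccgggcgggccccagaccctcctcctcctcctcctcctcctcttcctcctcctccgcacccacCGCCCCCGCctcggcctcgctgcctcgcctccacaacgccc

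The EGR1 window held 2 CArG boxes, CCATATTAGG from -105 to -96 and CCATATATGG from -83 to -74 counted from the start, where 1.16% of 35116 such windows in the table held any. It also held 1 match to GCGNGGGCG, a motif found in 8.41% of windows. The JUND and MAFF windows each held 1 TGACGTCA, at -200 to -193 and at -54 to -47, against 1.65% of all windows. MAFF also held 1 CACGTG (6.34% of windows) there, and its second start had another CACGTG and 1 kappaB site (5.21% of windows). SPRY2 held 2 matches to GCGNGGGCG before its first start and 0 matches to any of the 7 motifs before its other two. FOSB held 1 TATAAA (10.7% of windows), and FOSL2 held 0 of the 7. TGACTCA, found in 4.20% of windows, was in 0 of the 9 windows of these 6 genes. None of the matches overlapped. A match describes the letters only. The windows of FOSL1 and MYC were not analysed here.

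FOSL1 encodes an AP-1 subunit of the FOS family that has no strong activation domain of its own and is induced by sustained ERK signalling. Its log2 expression was 8.95, 9.04 and 8.97 on the wt-progerin arrays and 9.98, 9.99 and 9.95 on the S22A-progerin arrays. The lowest S22A-progerin array stood 0.92 above the highest wt-progerin array, and the 3 S22A-progerin arrays lay within a few hundredths of each other. The means were 8.98 ± 0.047 and 9.97 ± 0.021 (SD, n = 3), a difference of 0.99 (SE 0.052), or 1.99-fold. Of the 14884 genes, 157 had a larger difference upwards.

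FOSL2, the other FOS-like gene, differed in the opposite direction. It was read at 10.50, 10.51 and 10.42 (wt-progerin) and at 10.02, 9.98 and 10.16 (S22A-progerin). S22A-progerin replicate 3 was the nearest to the wt-progerin arrays, 0.26 below the lowest of them. The means were 10.48 ± 0.050 and 10.06 ± 0.095 (SD, n = 3), a difference of -0.42 (SE 0.066), 1.34-fold lower in S22A-progerin.

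FOSB, a FOS family member with a strong activation domain, gave a small difference that depended on the probe set. The brighter probe set read 6.91, 6.99 and 6.93 in wt-progerin and 7.27, 7.26 and 7.08 in S22A-progerin, a difference of 0.26 (SE 0.068). S22A-progerin replicate 3 again lay nearest to the other group, 0.087 above its highest array. The dimmer probe set read 6.61, 6.48 and 6.41 in wt-progerin and 6.41, 6.77 and 6.60 in S22A-progerin. Its groups overlapped, and its difference was 0.094 (SE 0.102).

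JUND is the JUN family member that is present in resting cells and tends to oppose their growth. Its values were 8.83, 8.71 and 8.65 in wt-progerin and 8.50, 8.41 and 8.52 in S22A-progerin. The groups were parted by 0.12, between wt-progerin replicate 3 and S22A-progerin replicate 3. The difference of -0.25 (SE 0.067) was the smallest of the 8 in size, and 26.3% of all genes had a larger one in either direction. With the arrays quantile normalized again it was -0.22.

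MAFF encodes a small Maf protein, which has a leucine zipper but no activation domain and pairs with NRF and BACH factors. It was read at 7.17, 7.19 and 7.22 (wt-progerin) and at 7.81, 7.77 and 7.70 (S22A-progerin). All S22A-progerin arrays were higher, by at least 0.47. The means were 7.19 ± 0.029 and 7.76 ± 0.058 (SD, n = 3), a difference of 0.57 (SE 0.055), 1.48-fold.

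Of 14 other measured genes of the AP-1, Maf and NRF families, 5 rose, none fell and 9 did not pass, where 10.8% of all genes were higher and 14.6% lower, and at an unadjusted p under 0.05 limma gave 7 of the 14. Their median difference was 0.0072 beside -0.0037 over all genes. The shares over all genes, here and beside the lists below, take no account of brightness. With the dimmer 50% of genes left out, 1369 of 7442 genes were higher and 2365 lower. JUNB, a JUN family member, was read at 8.52, 8.67 and 8.58 (wt-progerin) and at 9.39, 9.17 and 9.35 (S22A-progerin) and rose by 0.71 (SE 0.076, limma adjusted p = 0.000723). ATF3, a stress-induced partner of JUN proteins, rose by 0.70 (SE 0.095, limma adjusted p = 0.00217). The founding members did not pass over all genes, FOS at 0.16 (SE 0.055, limma adjusted p = 0.0758) and JUN at -0.15 (SE 0.067, limma adjusted p = 0.15). FOS passed with the dimmer 50% of genes left out and JUN with a robust prior, and over all alternatives their adjusted p-values in limma ran from 0.0221 to 0.224 and from 0.0447 to 0.301. MAFG, a small Maf like MAFF, had -0.16 (SE 0.051, limma adjusted p = 0.0576), and over the alternatives its adjusted p in limma ran from 0.0151 to 0.178, passing as lower in 4 of them, array centring included. Only 2 of the 14 rose without wt-progerin replicate 1 or 2, and 3 without wt-progerin replicate 3 or S22A-progerin replicate 1 or 2. JUNB and ATF3 kept their calls with any single array left out.

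**Figure D2:**
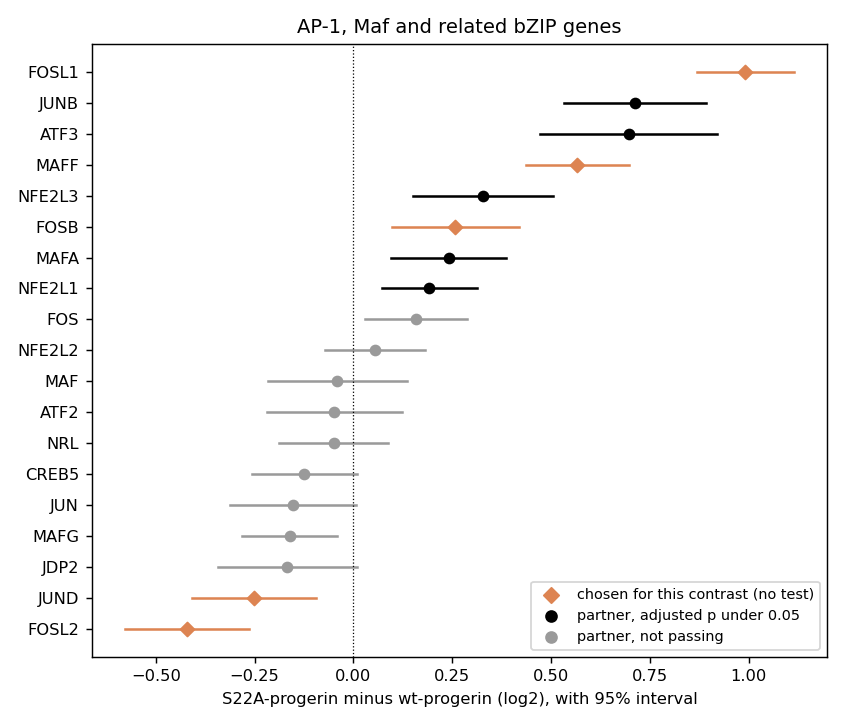
Differences between S22A-progerin and wt-progerin on the log2 scale (horizontal axis) with 95% intervals, for 5 of the 8 genes (orange diamonds, chosen from this contrast) and 14 measured partners (circles, black where limma's adjusted p was under 0.05). FOSL1 (0.99) and FOSL2 (-0.42) mark the ends, and FOS (0.16) and JUN (-0.15) lie near 0.

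Of 13 measured genes known as AP-1 targets, 5 rose and 2 fell (median 0.10), a share of 53.8% beside 25.4% of all genes (10.8% higher and 14.6% lower). MMP1, a collagenase with an AP-1 site in its promoter, rose from 4.91 ± 0.046 to 6.91 ± 0.066 (SD, n = 3; SE 0.059, limma adjusted p = 3.86e-06). MMP13, another collagenase, fell from 8.11 ± 0.017 to 7.54 ± 0.11 (SD, n = 3; SE 0.068, limma adjusted p = 0.00117). The largest rise was that of CXCL8, by 3.56 (SE 0.103, limma adjusted p = 3.86e-06), and PTGS2 rose by 1.49 (SE 0.082, limma adjusted p = 5.09e-05). AXL was the other fall (-0.46, SE 0.063, limma adjusted p = 0.00217). CCND1, cyclin D1, had a difference of 0.013 (SE 0.049) and did not pass.

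EGR1, a zinc finger factor induced by ERK through SRF at CArG boxes such as those printed above, was lower on its brighter probe set. That probe set read 9.86, 10.00 and 9.89 in wt-progerin and 9.71, 9.50 and 9.63 in S22A-progerin, a difference of -0.30 (SE 0.073), 1.23-fold. The groups were parted by 0.15, and S22A-progerin replicate 1 was the highest of its group. The dimmer probe set read 5.56, 5.43 and 5.53 in wt-progerin and 5.62, 5.55 and 6.0 in S22A-progerin. It differed in the opposite direction, by 0.22 (SE 0.118), with overlapping groups and with S22A-progerin replicate 3 well above the other arrays. Both probe sets carry the same RefSeq transcript in the annotation, and which part or strand of the gene each reads was not analysed here. The dimmer one lay below the median of all probe sets (6.04 to 6.09) on every array. With the 2 probe sets averaged the difference was -0.042 (SE 0.078), so the lower value of EGR1 rests on the brighter one.

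**Figure D3:**
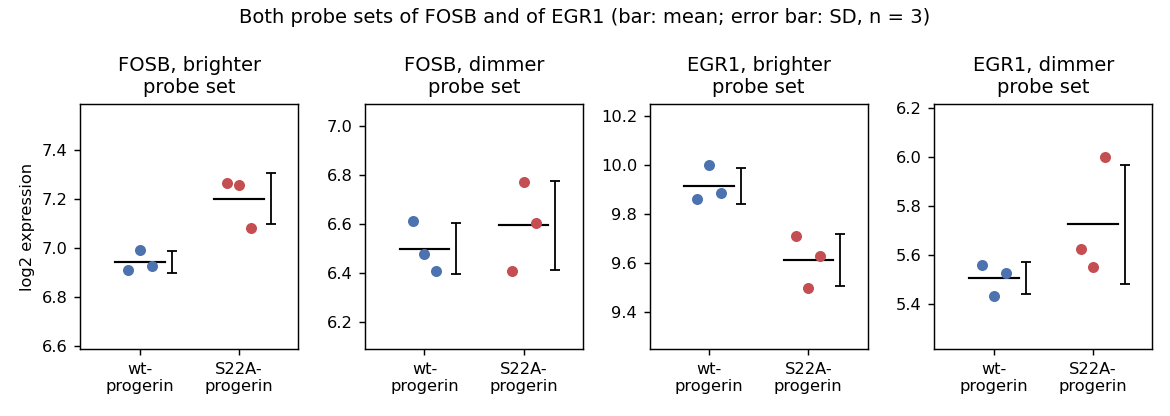
Log2 expression of the brighter and dimmer probe sets of FOSB and EGR1 on each array, wt-progerin in blue and S22A-progerin in red, with mean and SD (n = 3). Each panel spans the same log2 range. The groups are parted on the brighter probe sets (0.26 for FOSB, -0.30 for EGR1) and overlap on the dimmer ones (0.094 and 0.22).

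Among 23 other immediate-early genes, 10 rose, 3 fell and 10 did not pass (median 0.17). That is 56.5% called beside the 25.4% of all genes, which takes no account of brightness. NAB2, which binds EGR1 and represses its activity and is itself induced by it, fell from 8.40 ± 0.015 to 7.96 ± 0.11 (SD, n = 3; SE 0.068, limma adjusted p = 0.00361). SRF fell by 0.26 on the log2 scale (SE 0.057, limma adjusted p = 0.015), but among the fits with 1 array left out it did not pass without wt-progerin replicate 1 or 2 (limma adjusted p = 0.0541 and 0.0597, with a range of 4.90e-04 to 0.0597 over all alternatives). EGR3, a relative of EGR1, had a difference of -0.0049 (SE 0.154). The rises included GEM (1.86, SE 0.074), a small GTPase, and PLK3 (1.42, SE 0.088), a stress-induced polo-like kinase. CCN2, connective tissue growth factor, rose by 0.79 (SE 0.050). Only 1 of the 3 falls, NAB2, passed without wt-progerin replicate 1 or 2.

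MYC, the growth-promoting transcription factor, was read at 9.11, 9.24 and 9.21 (wt-progerin) and at 9.98, 9.90 and 9.80 (S22A-progerin). All S22A-progerin arrays were higher, by at least 0.56. The means were 9.19 ± 0.065 and 9.90 ± 0.088 (SD, n = 3), a difference of 0.71 (SE 0.067), 1.63-fold, and 307 genes had a larger difference upwards. With single arrays left out it ran from 0.67 to 0.76.

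MAX and both of the MXD genes that passed were higher in S22A-progerin. MXD1, which pairs with MAX and represses MYC targets, was read at 7.24, 7.42 and 7.31 (wt-progerin) and at 9.04, 8.87 and 9.08 (S22A-progerin). It rose by 1.67 (SE 0.078, limma adjusted p = 2.82e-05), 3.19-fold. MAX rose by 0.29 (SE 0.058, limma adjusted p = 0.0105), and MXD4, another MXD repressor, by 0.44 (SE 0.089, limma adjusted p = 0.011). MXD3 (0.079, SE 0.064), MNT (0.0015, SE 0.053) and MXI1 (0.025, SE 0.084), also MAX partners, did not pass. CIP2A, which protects the MYC protein from dephosphorylation, fell by 0.78 on the log2 scale (SE 0.051, limma adjusted p = 1.02e-04). In all, 3 of 13 measured genes of the MYC network rose and 2 fell (median 0.079), 38.5% beside 25.4% of all genes. The other fall was USP28 (-0.26), which stabilises the MYC protein, and it did not pass without wt-progerin replicate 3 (limma adjusted p = 0.0527, the highest of its alternatives).

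Of 29 measured classic MYC targets, 4 rose, 2 fell and 23 did not pass, a share of 20.7% beside 25.4% of all genes, with a median of -0.0053. Their wt-progerin means ran from 6.62 (TERT) to 12.33 (SRM). With the dimmer 50% of genes left out, 1369 of 7442 genes were higher and 2365 lower. The 25.4% is thus not a share for genes as bright as these targets. ODC1, the first enzyme of polyamine synthesis, stood at 12.31 ± 0.011 and 12.26 ± 0.046 (SD, n = 3; difference -0.050, SE 0.051). NCL, nucleolin, had -0.0053 (SE 0.069). The rises, RRS1, NIP7, WDR43 and NOP16, all ribosome assembly factors, were between 0.21 and 0.27, and 0 of the 29 rose without wt-progerin replicate 1. Without wt-progerin replicate 2 or 3 the rises were 1, and without S22A-progerin replicate 1 or 2 they were 2. SHMT1, a folate enzyme, fell by 0.60 on the log2 scale (SE 0.058, limma adjusted p = 4.30e-04). TCOF1, a ribosomal RNA synthesis factor, fell by 0.29 on the log2 scale (SE 0.056, limma adjusted p = 0.0096).

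SPRY2 encodes Sprouty 2, which inhibits the path from receptor tyrosine kinases to ERK, and had the largest difference of the 8 genes. It was read at 7.93, 7.89 and 7.88 (wt-progerin) and at 9.23, 8.95 and 9.06 (S22A-progerin). The wt-progerin arrays lay close together, and the lowest S22A-progerin array stood 1.02 above them. The means were 7.90 ± 0.022 and 9.08 ± 0.14 (SD, n = 3), a difference of 1.18 (SE 0.079), 2.27-fold, and 114 genes had a larger one upwards. Its spread among S22A-progerin arrays was the widest of the 8 genes, with replicate 1 0.15 above the group mean and replicate 2 0.13 below it (-0.13).

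Of 24 other measured feedback inhibitors of receptors, ERK and related kinases, 8 rose and 5 fell (median 0.15), 54.2% beside 25.4% of all genes. SPRY4, a second Sprouty gene, had a difference of 0.35 (SE 0.108) and did not pass (limma adjusted p = 0.0516), with S22A-progerin replicate 3 at 5.86 and the other two at 6.27 and 6.18. It passed as higher without S22A-progerin replicate 3 (0.47, limma adjusted p = 0.00467) and in 3 other alternatives, and the adjusted p of its alternatives reached 0.145. SPRY3, another Sprouty gene, fell by 0.26 on the log2 scale (SE 0.054, limma adjusted p = 0.0127, and 0.0508 without wt-progerin replicate 2, the 1 alternative in which it did not pass), and was named after its value was seen. IL17RD, an inhibitor of FGF signalling also called SEF, rose by 0.82 (SE 0.091, limma adjusted p = 8.49e-04). DUSP5, a nuclear ERK phosphatase, rose by 0.86 (SE 0.085, limma adjusted p = 4.90e-04). DUSP10 (1.03, SE 0.048), a phosphatase of JNK and p38 and not of ERK, rose most. DUSP1, also of this phosphatase family, rose by 0.23 (SE 0.062, limma adjusted p = 0.0355). It did not pass without any single wt-progerin array or without S22A-progerin replicate 1 or 2 (limma adjusted p up to 0.123). Nor did it pass with the arrays centred or with the replicate block. DUSP6, the cytoplasmic ERK phosphatase, had 0.049 (SE 0.051), and DUSP4, another nuclear one, had 0.21 (SE 0.079, limma adjusted p = 0.0974, and 0.0274 without S22A-progerin replicate 3, in a range of 0.0274 to 0.259). Both were dim, with wt-progerin and S22A-progerin means of 5.57 and 5.62 for DUSP6 and 5.26 and 5.47 for DUSP4. The array medians over all probe sets were 6.04 to 6.09. DUSP8 (-0.31), also a JNK and p38 phosphatase, and SOCS3 (-0.85), a brake on cytokine receptors, fell. The rises were 4 without wt-progerin replicate 1 or 2 or S22A-progerin replicate 1, and 5 without wt-progerin replicate 3 or S22A-progerin replicate 2. Centring the arrays on their medians also left 5, and the highest count of rises with 1 array left out was 9.

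Upstream of the 8 genes, EGFR, the epidermal growth factor receptor, was read at 7.79, 7.82 and 7.86 (wt-progerin) and at 9.24, 9.21 and 9.43 (S22A-progerin). It rose by 1.47 (SE 0.072, limma adjusted p = 3.51e-05), 2.77-fold. Its ligand EREG, epiregulin, was read at 6.19, 6.03 and 6.10 and at 7.80, 8.18 and 8.29, and rose by 1.98 (SE 0.125, limma adjusted p = 8.71e-05). HBEGF, another EGFR ligand, had -0.067 (SE 0.057) and did not pass. FGFR2, a fibroblast growth factor receptor, fell by 0.79 on the log2 scale (SE 0.101, limma adjusted p = 0.00162). Of 21 growth factor ligands 7 rose and 3 fell (median 0.12), 47.6% beside 25.4% of all genes, the falls being 1 without any single wt-progerin array or without S22A-progerin replicate 2. Of 17 receptors 3 rose and 6 fell (median 0.020), 52.9% beside the same 25.4%.

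Within the RAS to ERK cascade and its ETS factors, 5 of 19 measured genes rose and 3 fell (median 0.055), 42.1% beside 25.4% of all genes. ETV4 (0.95, SE 0.052), ETV5 (0.72, SE 0.058) and ETS1 (0.61, SE 0.056), ETS factors activated or induced by ERK, rose. GAB1 (-0.65, SE 0.071), a docking protein of receptor tyrosine kinases, MRAS (-0.49, SE 0.070) and ETS2 (-0.38, SE 0.056) fell. The kinase genes MAP2K1 (0.05), MAP2K2 (0.02) and MAPK3 (0.10) and the adaptor GRB2 (-0.03) did not pass. Of 13 genes of the JNK and p38 cascade 1 rose and 2 fell (median -0.054), 23.1% beside the 25.4% that takes no account of brightness. None of those 3 passed in every fit with 1 array left out, the count of rises being 0 without any single array other than S22A-progerin replicate 3. The falls were 0 without any single wt-progerin array and 1 without any single S22A-progerin array. These arrays measure transcripts, and phosphorylation of ERK, JNK or the AP-1 proteins was not measured.

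**Figure D4:**
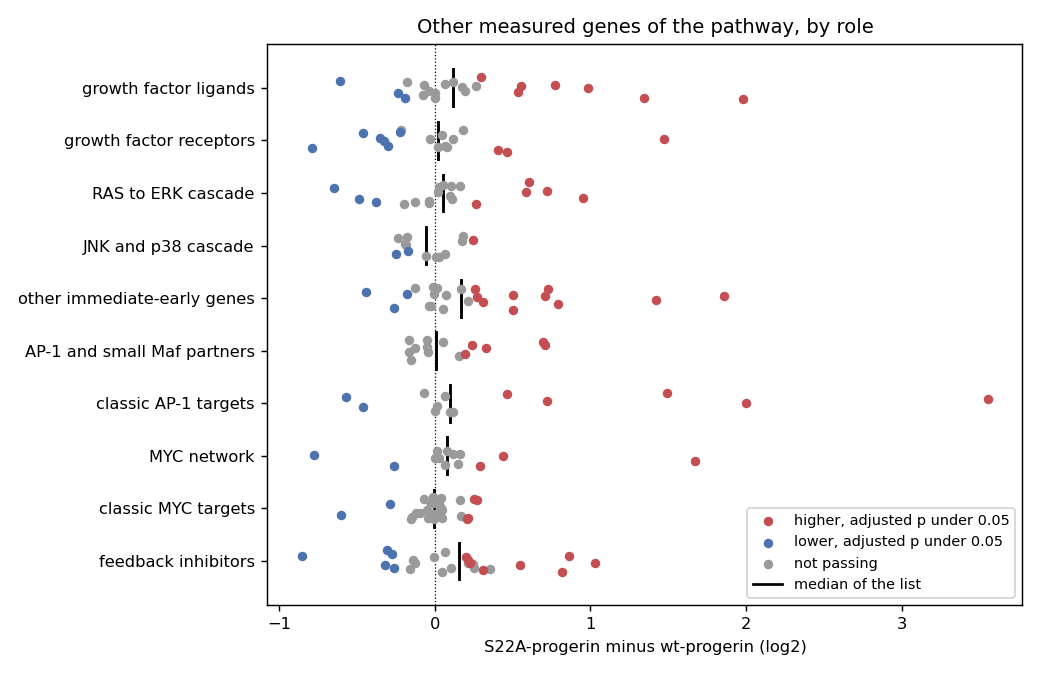
Differences between S22A-progerin and wt-progerin on the log2 scale for the other measured genes of the pathway, 1 point per gene, grouped by role, with the 8 genes left out. Red and blue points passed limma at an adjusted p under 0.05 as higher or lower, grey ones did not, and a black bar marks each list's median. Rises and falls stand side by side in most lists, and the medians lie between -0.054 and 0.17.

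Of the 183 distinct genes measured in these 10 lists, 51 rose and 27 fell. That is 42.6% called, beside 25.4% of all genes. The share over all genes depends on brightness. With the dimmer 50% of genes left out, 1369 of 7442 genes were higher and 2365 lower, and in the lists 51 and 28. The 25.4% set beside each list is therefore not a share for genes of like brightness. The lists were written with earlier results of these data known, so the 42.6% is given as a count only.

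**Figure D5:**
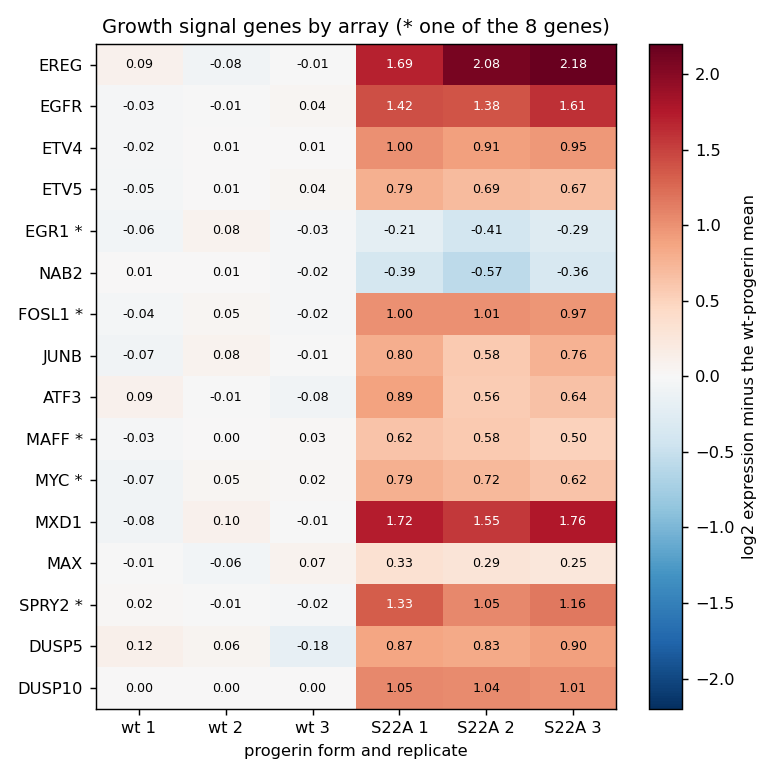
Log2 expression on each array minus the mean of the wt-progerin arrays, from receptor and ligand at the top to feedback at the bottom, with 5 of the 8 genes described here starred and the other genes picked after their values were seen. FOSL2, JUND and FOSB are not drawn. Falls such as FGFR2 and GAB1, and genes that did not pass such as FOS, JUN and DUSP6, are also left out. Red is higher and blue lower. EREG spans 1.69 to 2.18 on the S22A-progerin arrays and MXD1 1.55 to 1.76, while EGR1 spans -0.41 to -0.21.

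The 8 genes also differed in how S22A-progerin replicate 3 stood in its group. That array was the nearest of its group to the wt-progerin mean for FOSL1, FOSL2, FOSB, JUND, MAFF and MYC, while for EGR1 it was replicate 1 and for SPRY2 replicate 2. Without replicate 3 the differences of FOSL2 and FOSB grew in size to -0.47 and 0.32. Leaving out any single array changed no direction among the 8 and moved none by more than the SD within groups.

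Genes with the most similar profiles were sought among all other tested genes, by the mean absolute difference over the 6 arrays between profiles centred on their own means. Since the group difference dominates such profiles, this finds genes with a difference of like size. For FOSL1 the nearest were TP53INP1 (0.022) and DUSP10 (0.026), for MAFF CILK1 (0.012) and ERRFI1 (0.024), an inhibitor of EGFR. For MYC they were FOXA2 (0.015) and EDN1 (0.020), and for SPRY2 EFR3B (0.0385) and HAS2 (0.043). FOSB was nearest to PDCD1LG2 (0.0185) and IL4R (0.0195), and FOSL2 to RECQL4 (0.022) and RCCD1 (0.025). JUND was nearest to RASAL2-AS1 (0.021) and RAD52 (0.022), and EGR1 to SGMS2 (0.0205) and TMEM18 (0.022). All of these distances are in log2 units.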

How the data were processed

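Total RNA of 6 U-2 OS cultures, 3 per group, was labelled with biotin for Affymetrix whole-transcript arrays, per the labels' protocols. The authors deposited log2 values, which the submitters' processing notes credit to RMA and Affymetrix Expression Console. That method subtracts background, equalises the arrays by quantiles and reduces each probe set to 1 value, and it compresses differences of dim genes. For versions, genome build and detection calls, nothing was given in the sources used here. The number of arrays limits the precision.

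Of 53617 probe sets, 16098 had 1 gene symbol, 0 several and 37519 none in the platform annotation. Entrez identifiers were checked against RefSeq (GRCh38.p14), which changed 0 symbols. Of 14884 genes, 779 had several probe sets. Genes were tested with limma 3.58.1 in R 4.3.3 (lmFit, eBayes, 2 groups, no covariate, two-sided, Benjamini-Hochberg over all genes, threshold 0.05). The code was tested on simulated data. The 8 genes and the gene lists (300 genes, 197 measured) were chosen with earlier results of these data known. From each list the rule named up to 3 called genes per direction and preset relatives. Genes named outside it were picked after their values were seen (SPRY3, MXD3, NOP16, KRT14, RUNX2, SPP1 and the cascade genes that did not pass). Alternatives covered normalization, centring, dim genes, probe sets, priors, weights, the replicate number as a block and single arrays left out.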

Additional observations from a re-analysis of the deposited data

How the results depend on the processing

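With the dimmer probe set, EGR1 reversed to 0.22 and FOSB was 0.094, and with probe sets averaged they were -0.042 and 0.18. No other alternative changed the direction of any of the 8 genes or moved one by more than its SD within groups. Over all genes, 852 were higher and 1226 lower at an adjusted p under 0.01, and 411 and 452 at a fold of at least 1.5, beside 1601 and 2176. In the pathway lists the lower genes were 14 at 0.01, and 24 were higher and 6 lower at that fold, beside 51 and 27. With single arrays left out, 1126 to 1553 genes were higher and 1514 to 2048 lower, and in the lists 37 to 54 and 19 to 24. With the arrays centred on their medians, 1320 were higher and 2457 lower. No pairing by replicate number was seen in the expression values (correlations of deviations -0.0195, -0.0549 and -0.0056 for numbers 1, 2 and 3, and no array correlated best with its own number). These correlations cannot show whether samples with the same number were handled together. With the replicate block 1285 genes were higher and 1705 lower, and 43 and 21 in the lists. Of 56 genes named in the text or by the rule with a call, 8 lost it with the block (SRF among them, limma adjusted p = 0.0557), 4 with repeated quantile normalization, 4 with centring and between 4 and 14 with 1 array left out. Depth does not apply to arrays, and signal over background was not analysed here.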
